A study of Danio rerio with 3 samples.

Results

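Basal epidermis is the inner of the cell layers of the larval zebrafish skin. In vertebrates its cells are held on the basement membrane by hemidesmosomes, which link keratin filaments through plectins, collagen XVII and the integrin pair α6β4 to laminins and collagens outside the cell. The transcription factor p63, encoded by *tp63*, is required for this layer to form, and its dividing cells supply new skin cells. Larval basal cells also make collagens and other proteins of the matrix on which they sit.

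The cells described here are 2082 barcodes of 40973 that passed the quality limits, from scRNA-seq of the tissue around a spinal lesion. A barcode, the tag shared by the RNA of 1 droplet, was chosen by its counts of unique molecular identifiers (UMIs, each marking 1 captured mRNA molecule). It needed at least 200 genes, 500 to 50000 UMIs and less than 20% mitochondrial UMIs. It also needed 2 or more UMIs of at least 3 of the 6 genes *krt91*, *col17a1a*, *krtt1c19e*, *lgals1l1*, *zgc:136930* and *ptgdsb.1*, and at least 1 UMI of *tp63* or *epcam*. Finally, no more than 1 of *and1*, *and3*, *frem2a* and *fras1*, which mark the fin fold, could have 2 or more UMIs. These barcodes are called members below.

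Larvae had been injected at the 1-cell stage with a control gRNA (gControl, 803 members) or with haCRs, synthetic guide RNAs that mutate their target in nearly all cells, against *sema4ab* (610 members in library gSema4abR1 and 669 in gSema4abR2). All larvae received a spinal lesion at 3 days post-fertilization, and trunk tissue from the injury site was taken 1 day later, at 4 days. Each sample had 50 larvae, and viable cells were sorted, while the design text also speaks of cells positive for GFP. The gSema4ab libraries are technical repeats, so each condition was taken as 1 pool without biological replicates, no test was run, and every 95% interval covers counting error only.

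The perturbation shared by both gSema4ab libraries is the guide below, which makes somatic mutations in injected larvae rather than a stable line. It is given as the study's own reference sequence has it, 5′ to 3′, 20 bases followed by the 3 bases of the PAM in capitals.
sema4ab guide: accatggttacaggacccagCGG

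The libraries held 14398, 14384 and 14163 barcodes with 152455137, 140055125 and 139165621 UMIs, of which 13842, 13655 and 13476 barcodes passed the limits. Here and below, 3 values in a row stand for gControl, gSema4abR1 and gSema4abR2, in this order. The median depth of members was 16426, 16384 and 16551 UMIs, above the 6829 to 7581 of all filtered barcodes, and the median number of genes was 3093 to 3196. Between 46 and 67 barcode sequences occurred in both libraries of a pair, and 0 of these were members in both. Ribosomal protein genes took a median of 23.2%, 25.3% and 26.01% of the UMIs per member. In all other barcodes the median per barcode was 18.8%, 22.0% and 22.6%.

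The targeted gene was low in members. *sema4ab* (ENSDARG00000062352), encoding a transmembrane semaphorin, was counted with 300, 146 and 167 UMIs over all members, which is 21.6, 13.8 and 14.5 CPM (UMIs of a gene relative to all UMIs of the members, scaled as counts per 1000000). The log2 ratio of gSema4ab, with both libraries pooled, to gControl was -0.61 (-0.84 to -0.37). A UMI was found in 20.8%, 17.05% and 16.9% of members and in 1.03%, 0.705% and 0.576% of globin-rich barcodes. Globin-rich barcodes are those with at least 50% globin UMIs, which should lack epidermal genes, and their median depth was 3944, 4488 and 5434 UMIs. After each member had been thinned to 2000 UMIs the shares were 3.53%, 3.80% and 3.47%, near the level of 1 UMI, where no difference can be read. In all other barcodes the level was 53.7, 30.5 and 31.6 CPM. A count at the 3′ end does not show whether a transcript is mutated, so these values do not check the mutation.

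The genes of the rule, used to choose the members, were far above their level in the other barcodes, as the choice fixes. *krt91* (ENSDARG00000036830), a keratin, had 15883, 15331 and 14130 CPM. *krtt1c19e* (ENSDARG00000090268), a keratin known from basal keratinocytes, had 13913, 10910 and 10399 CPM. *col17a1a* (ENSDARG00000069415), which encodes collagen XVII, had 1744, 1006 and 1040 CPM. All 3 genes were lowest in a gSema4ab library. *tp63* (ENSDARG00000044356) was at 409, 403 and 402 CPM and had a UMI in 88.8%, 91.8% and 86.4% of members, against 0.442%, 0.352% and 0.720% of globin-rich barcodes. The defining transcription factor of the layer was thus detected in most members of each library, as part of the choice.

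Not every member carried the full set. All 6 rule genes had 2 or more UMIs in 519 of 803, 439 of 610 and 444 of 669 members, while exactly 3 did so in 84, 43 and 68. Just outside the limit, 200, 122 and 142 filtered barcodes had exactly 2 of the 6 genes and met the other conditions. The level of *krtt1c19e* was 5350, 2612 and 2943 CPM in those outside with 2 genes, 3754, 2281 and 2697 CPM in members with 3 genes, and 16853, 13049 and 12390 CPM in members with 6. Members with 3 genes held more of the superficial markers. *icn2* was at 3547, 1799 and 1601 CPM in them and at 125, 71.8 and 61.7 CPM in members with 6. *krt17* was at 2649, 1330 and 1279 CPM and at 82.9, 28.1 and 56.4 CPM. Their median depth was 12600, 13781 and 3678.5 UMIs, against 17736, 17266 and 18656.5 UMIs. A further 29, 14 and 67 barcodes had no UMI of *tp63* or *epcam*, and 19, 20 and 52 members had exactly 1. Among the members, spread was wide even for the leading genes. The 10th and 90th percentiles of *krt91* were 1483 and 30016 CPM in gControl, and *lgals1l1*, a galectin gene, had no UMI in 12.7%, 7.54% and 10.16% of members.

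Among genes outside the rule, those highest in members relative to the other barcodes included matrix and attachment genes. *col7a1* (ENSDARG00000021720), encoding the collagen of anchoring fibrils, was 45.8 times as high in members as in the other barcodes over the libraries, *mmp30*, a matrix metalloproteinase gene, 44.4 times, and *lamb4*, a laminin chain, 34.5 times. *col5a3b*, a chain of collagen V, was 36.2 times as high and *col28a1a* 33.2 times. *si:dkey-183i3.5* was 130.1 times as high, at 5455, 4707 and 4415 CPM. These ratios describe the choice of members and are no independent evidence of the cell type. Collagen I and periostin genes were also abundant, with *col1a2* at 5332, 3924 and 3998 CPM and *postnb* at 3634, 3441 and 3295 CPM.

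The share of basal epidermis among filtered barcodes was 5.80% (5.42 to 6.204%), 4.47% (4.13 to 4.83%) and 4.96% (4.60 to 5.34%). Both gSema4ab libraries were lower, and the pooled log2 ratio of gSema4ab to gControl was -0.30 (-0.43 to -0.17). Members with markers of another cell type, described below and more frequent in gControl, are included. Levels of the rule genes also differed between the libraries, and their part in this share was not tested. Fin fold epidermis, here the barcodes that met the rule but for its last limit, was 1.68%, 0.688% and 0.913%, a log2 ratio of -1.07 (-1.34 to -0.79). Superficial epidermis, here other barcodes with 2 or more UMIs of each of *icn2*, *krt17* and *cyt1l*, was 6.21%, 4.15% and 4.29%, a log2 ratio of -0.56 (-0.69 to -0.43). Fewer recovered cells of a type, a different fraction freed by dissociation and a different number in the tissue cannot be told apart from 1 pool per condition.

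The difference was smaller among members in which none of the fin fold genes had 2 or more UMIs. Members with no fin fold gene at 2 or more UMIs were 478, 412 and 448, and members with exactly 1 such gene were 325, 198 and 221. With members limited to those without any, the log2 ratio of the share was -0.12 (-0.29 to 0.04), which includes 0. Just outside, barcodes with exactly 2 of these genes were 62, 20 and 64. Of basal and fin fold barcodes together, fin fold made up 22.4% (19.9 to 25.1%), 13.4% (10.9 to 16.1%) and 15.5% (13.1 to 18.2%). With fin fold barcodes counted as members, the log2 ratio was -0.44 (-0.55 to -0.32).

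**Figure D1:**
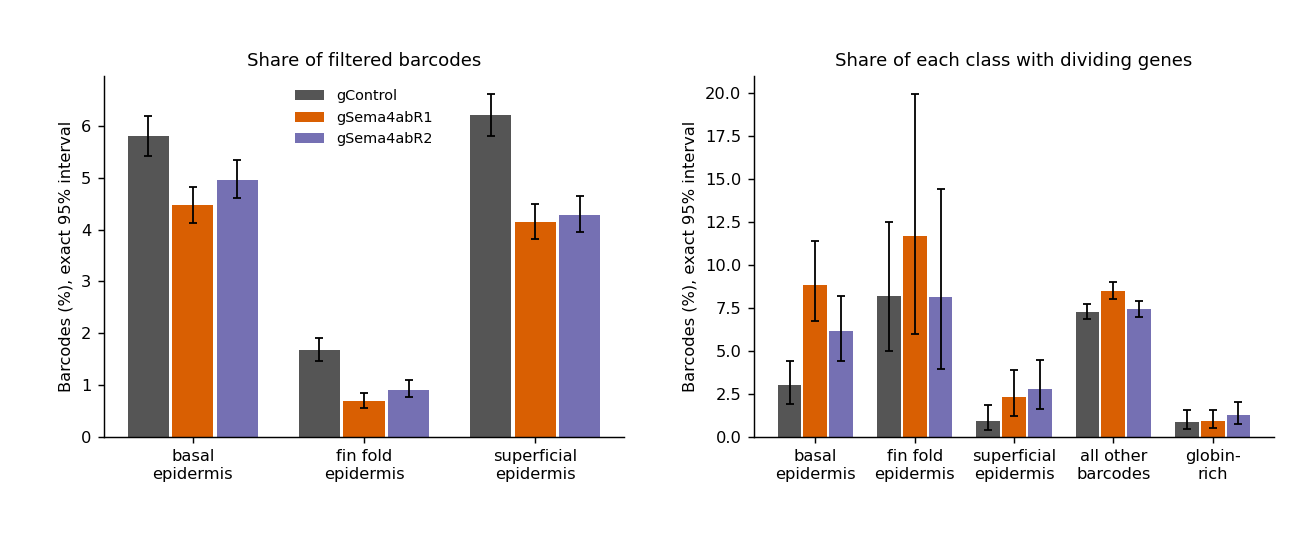
Left, share of filtered barcodes (%) that were basal, fin fold or superficial epidermis in gControl (grey), gSema4abR1 (orange) and gSema4abR2 (purple); right, share of each class (%) with at least 2 dividing genes. Bars start at 0 and error bars are exact binomial 95% intervals; basal epidermis took 5.80%, 4.47% and 4.96% of barcodes, and its dividing share was 2.99%, 8.85% and 6.13%.

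A larger share of members carried dividing genes in both gSema4ab libraries. A member was taken as dividing with 2 or more UMIs of at least 2 of *mki67*, *top2a*, *cdk1*, *aurkb*, *ube2c*, *ccnb1*, *plk1*, *birc5a*, *tpx2* and *cdc20*, which encode proteins of mitosis and chromosome handling. There were 24 of 803 (2.99%, 1.92 to 4.41%), 54 of 610 (8.85%, 6.72 to 11.4%) and 41 of 669 (6.13%, 4.43 to 8.22%). The interval of gControl ended just below that of gSema4abR2, and the pooled log2 ratio was 1.29 (0.66 to 2.02). In globin-rich barcodes, where the genes serve as a background, the shares were 0.884%, 0.916% and 1.297%.

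Dividing members were deeper than the rest, with medians of 25163, 24184 and 28582 UMIs against 16380, 15998 and 15939. After thinning to 2000 UMIs, 5 of 765, 10 of 579 and 6 of 634 members remained dividing (38, 31 and 35 were shallower and left out), and the log2 ratio was 0.92 (-0.50 to 2.82). With a limit of 1 UMI of 2 genes, added after the data had been seen, the thinned shares were 2.22%, 6.91% and 5.21%, and 9.09%, 16.4% and 13.0% without thinning. The dividing share was 0.9302%, 2.29% and 2.77% in superficial epidermis, 8.19%, 11.7% and 8.13% in fin fold epidermis, and 7.28%, 8.49% and 7.41% over all barcodes that were not members. In gControl the dividing share of basal epidermis was below that of the fin fold (interval 5.003 to 12.5%), and the fin fold intervals of the libraries overlapped.

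Gene levels were compared over 2019 genes with at least 50 CPM on average, the rule genes left out. With no replicates, a gene was called when both gSema4ab libraries differed from gControl at least 1.5-fold in the same direction, which is a limit of size and not of significance. There were 86 genes called higher, 4.26% of those measured, and 136 called lower, 6.74%. Of these calls, 38.7% were thus higher, while scaling by edgeR's TMM factors made this 64.7% (145 higher, 79 lower) and DESeq2 size factors 67.7% (155 higher, 74 lower). These scalings moved the median log2 ratio of all genes from -0.01 to 0.12 and 0.13, so small shifts of a group depend on the scaling. The repeats differed little from each other, with 25th and 75th percentiles of the log2 ratio of R2 to R1 at -0.08 and 0.05, against -0.29 and 0.22 for gSema4ab to gControl. This spread also holds whatever differs between the handling of the pools.

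The called genes were also compared with the other barcodes, in which 819 of the 2019 genes were above gControl and 1200 below in the pooled ratio, called or not. Of the 86 genes called higher, 79 were higher in both gSema4ab libraries in the other barcodes as well and 27 were past 1.5-fold there. Of the 136 called lower, 134 were lower in both and 85 past 1.5-fold there. Over all 2019 genes the 25th and 75th percentiles of the pooled log2 ratio there were -0.40 and 0.12. For 11 of the higher and 13 of the lower genes, 10 members held at least 50% of the UMIs in some library. The shares of all 2019 genes past 1.5-fold in the other barcodes, or held by few members, are not given. These counts are therefore a description only.

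**Figure D2:**
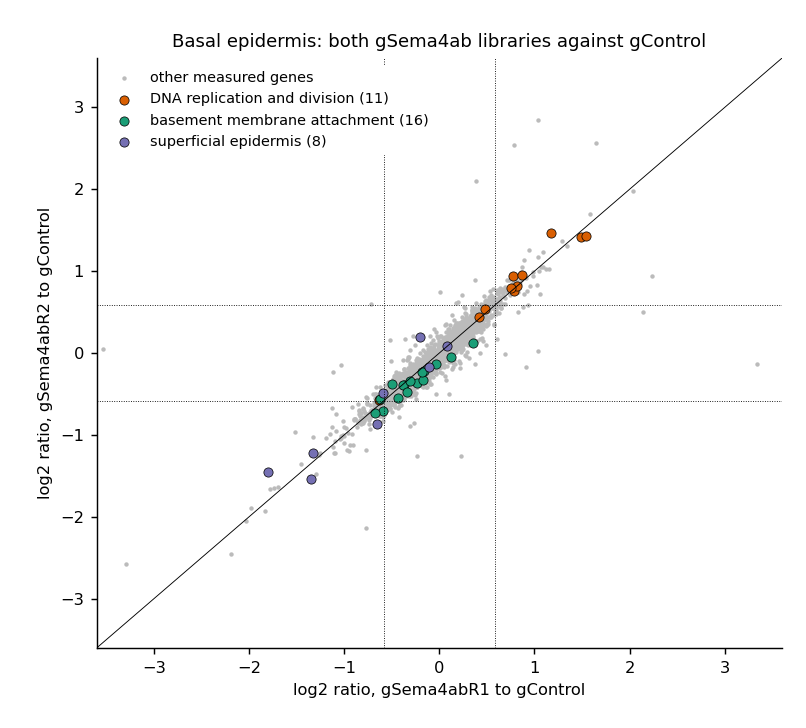
Log2 ratio of CPM in basal epidermis of gSema4abR1 to gControl (x axis) and of gSema4abR2 to gControl (y axis), 1 point per gene, 2017 of the 2019 measured genes (2 lie outside the axes). Dotted lines mark 1.5-fold and the solid line equal values; genes of DNA replication and division (orange, 11) lie to the upper right except *ccnd2a*, with 8 past 1.5-fold in both libraries. Of the genes of basement membrane attachment (green, 16) 14 lie below 0 in both, and of the superficial epidermis (purple, 8) 4 are past 1.5-fold below. In the pooled ratio 1031 of all 2019 genes were below 0.

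Genes of DNA replication and division had the highest median of the gene lists examined. Of the 56 listed genes 11 were measured at 50 CPM, 8 were called higher and 0 lower, with a median log2 ratio of 0.81 against -0.01 over all measured genes, and the summed level of the list was 2862, 4816 and 5029 CPM. The 8 of 11 stand beside 4.26% of all measured genes. In all other barcodes the median of the list was 0.27. At a lower limit of 10 CPM, 34 of 39 genes were called higher, against 4.70% of all genes at that limit.

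*pcna* (ENSDARG00000054155), the sliding clamp of DNA polymerase, had 79.1, 230.3 and 213.6 CPM, a log2 ratio of 1.48 (1.39 to 1.58). It had a UMI in 31.5%, 51.0% and 50.5% of members and in 6.41%, 7.82% and 7.20% of globin-rich barcodes, and after thinning in 8.497%, 22.1% and 18.5% of members. *rrm2* (the ID ENSDARG00000078069 of 2 with this symbol), a subunit of ribonucleotide reductase, was at 13.5, 64.2 and 52.3 CPM, below the level at which genes were called, and 10 members held 55.9%, 32.4% and 42.1% of its UMIs. *mki67*, a marker of cycling cells, was at 26.6, 59.99 and 73.4 CPM. For *pcna*, *rrm2* and *mki67* both gSema4ab libraries were above gControl by more than the repeats differed.

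Tubulin and chromatin genes of the list showed the same direction. *tubb2b*, a β-tubulin, was at 62.3, 175.2 and 166.1 CPM, a log2 ratio of 1.45 (1.35 to 1.56). *stmn1a*, encoding the microtubule regulator stathmin, was at 619, 1059 and 1187 CPM, a log2 ratio of 0.86 (0.83 to 0.90). *hmgb2a*, a chromatin protein gene, was at 454, 782 and 768 CPM, and *chaf1a*, a subunit of the chromatin assembly factor CAF-1, at 43.6, 80.0 and 84.7 CPM. Cyclin *ccnd2a* was the exception, at 313, 201 and 211 CPM, a log2 ratio of -0.60 (-0.66 to -0.54), just inside 1.5-fold. In members that were not dividing, *pcna* was at 59.2, 142.5 and 145.9 CPM and *stmn1a* at 585, 925 and 1065 CPM. Without the dividing members 4 of 9 measured genes of the list were called higher, beside 2.68% of all genes.

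**Figure D3:**
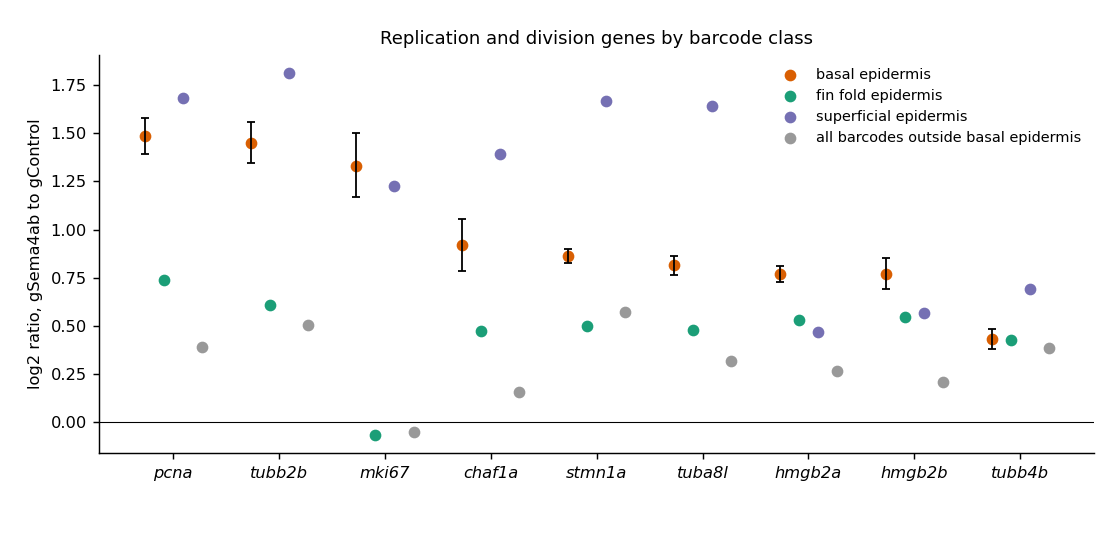
Log2 ratio of gSema4ab (both libraries pooled) to gControl for 9 genes of DNA replication and division in basal epidermis (orange, with exact 95% intervals of counting error), fin fold epidermis (green), superficial epidermis (purple) and all barcodes outside basal epidermis (grey). For *pcna* the values were 1.48, 0.74, 1.68 and 0.39, and *mki67* was at 1.33 in basal epidermis and at -0.07 and -0.05 in fin fold epidermis and all other barcodes. In superficial epidermis *mki67* had a UMI in 4.07%, 6.70% and 7.96% of barcodes, and in 0.703%, 1.98% and 2.50% after thinning.

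The differences between cell classes were not tested. For *pcna* the log2 ratio was 1.68 in superficial epidermis, 0.74 in fin fold epidermis and 0.39 in all other barcodes, where the level was 229.9, 320.6 and 281.5 CPM. For *stmn1a* it was 1.67, 0.50 and 0.57. Basal epidermis thus lay between the superficial and the fin fold cells for both genes.

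Genes of attachment to the basement membrane were lower as a group by a small amount. Of 34 listed genes 16 outside the rule were measured, of which 14 were below gControl in both gSema4ab libraries, 2 were called lower and 0 higher. In the pooled ratio 1031 of all 2019 genes were below gControl. The median log2 ratio was -0.36 against -0.01 over all measured genes. Under TMM and DESeq2 scaling it was -0.23 and -0.21, against 0.12 and 0.13 over all genes, and no gene of the list was past 1.5-fold. The 2 of 16 stand beside 6.74% of all measured genes called lower. In the other barcodes the median of the list was -0.66, and the part of the lower share of fin fold and superficial barcodes in that value was not tested.

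The integrin and plectin genes of the hemidesmosome were among the lower ones. *itga6b* (ENSDARG00000069946), integrin α6, was at 298, 187 and 179 CPM, a log2 ratio of -0.70 (-0.77 to -0.64). Its partner *itgb4* was at 994, 786 and 716 CPM, and *plecb*, a plectin gene, at 1935, 1485 and 1471 CPM. In these 3 genes both gSema4ab libraries were below gControl, and the difference between the repeats was smaller than that to gControl. *col17a1a* was a rule gene, and its log2 ratio of -0.77 (-0.79 to -0.74) is given as a description only.

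Matrix ligands below the cell were mostly lower by less. *lamc1*, a laminin γ chain, was at 102, 68.0 and 62.5 CPM and was called lower. *col7a1* was at 429, 318 and 293 CPM, a log2 ratio of -0.49 (-0.54 to -0.44), and *lama5*, a laminin α chain, at 304, 245 and 240 CPM. The collagen IV genes *col4a5* and *col4a6* were at 1049, 938 and 904 CPM and at 1097, 848 and 837 CPM. *cd151l*, a tetraspanin gene, was the 1 member of the list above gControl in both libraries, at 138, 175 and 150 CPM.

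**Figure D4:**
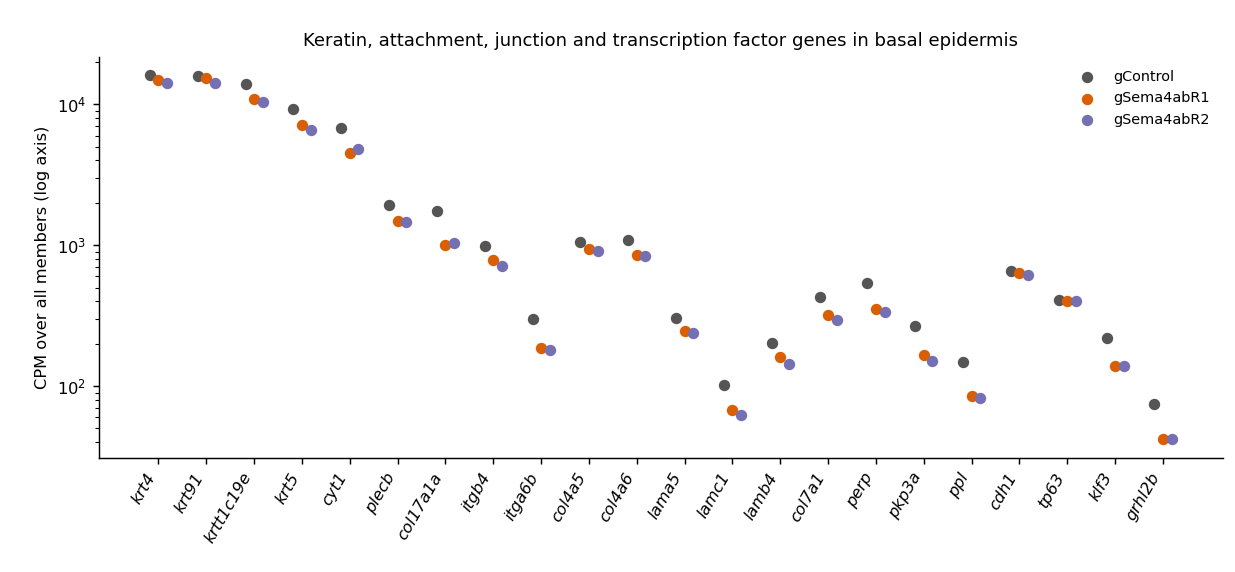
Level in CPM over all members (log axis) of keratin, attachment, junction and transcription factor genes in gControl (grey), gSema4abR1 (orange) and gSema4abR2 (purple), 1 point per library, intervals not drawn. *tp63* lies at 409, 403 and 402 CPM, while *itga6b* (298, 187 and 179 CPM) and *ppl* (147, 84.8 and 82.4 CPM) are lower in both gSema4ab libraries.

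Keratins were mostly lower, by less than 1.5-fold. Of 10 measured keratin and cytokeratin-like genes 7 were below gControl in both gSema4ab libraries and 1 was above in both. In the pooled ratio 1031 of all 2019 genes were below gControl. Under TMM and DESeq2 factors the median of the list was -0.09 and -0.07, against 0.12 and 0.13 over all genes. Of the 10, 2 were called lower, beside 6.74% of all genes, and 0 higher. The median log2 ratio was -0.21, against -0.01 over all measured genes and -0.74 for the list in the other barcodes. The other barcodes include fin fold and superficial epidermis, and the part of their lower share in that value was not tested. *krt5*, the basal type II keratin, was at 9274, 7097 and 6626 CPM, a log2 ratio of -0.44 (-0.45 to -0.43), and *krt4* at 16046, 14856 and 14218 CPM. *krt18a.1* was above gControl in both, at 242, 273 and 369 CPM, a log2 ratio of 0.42 (0.36 to 0.48), and in the list 1 gene was called higher without gSema4abR1 and with none of the fin fold genes. The 2 that were called, *icn2* and *krt17*, are markers of the superficial layer and are taken up below with the members that carry markers of another cell type. Both also define some of those members, and when these are left out both genes are below 50 CPM and no longer measured.

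Of the cell junction genes called lower, 3 belong to desmosomes or to the cornified envelope and 1 to tight junctions. Of 23 measured genes 4 were called lower, beside 6.74% of all genes, and 0 higher. The median log2 ratio was -0.13 in members and -0.39 in the other barcodes. The part of the lower share of fin fold and superficial barcodes in the latter value was not tested. Under either scaling factor 1 was called lower and the median in members was between -0.00 and 0.01. *perp*, a desmosome protein gene and p63 target in mouse skin, was at 538, 354 and 338 CPM, *pkp3a*, a plakophilin, at 268, 167 and 150 CPM, and *ppl*, periplakin, at 147, 84.8 and 82.4 CPM. The fourth was *cldne*, at 110, 69.6 and 60.4 CPM, with a log2 ratio of 0.64 when members with markers of another cell type were left out. In that setting 2 of 21 genes were called lower. E-cadherin, *cdh1*, was at 658, 631 and 614 CPM, and the claudin *cldni* was higher at 2117, 2600 and 2478 CPM.

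Of 10 measured epidermal transcription factors 3 were called lower, beside 6.74% of all genes, and 0 higher. The median log2 ratio was -0.44 in members and -0.56 in the other barcodes. Here too, the part of the lower share of fin fold and superficial barcodes in the latter value was not tested. Under TMM and DESeq2 factors 1 was called lower. *grhl2b*, a grainyhead-like factor, was at 74.3, 41.8 and 42.1 CPM, *klf3*, a Krüppel-like factor, at 220, 140 and 138 CPM, and *foxp1b* at 105, 65.5 and 67.1 CPM. *id1*, which blocks helix-loop-helix factors and responds to BMP signals, was at 785, 523 and 554 CPM. *elf3*, an epithelial ETS factor, was the 1 above gControl in both, at 54.7, 72.8 and 76.7 CPM. *tp63*, a rule gene, had a log2 ratio of -0.02 (-0.07 to 0.02).

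Genes that basal cells make for the matrix were mostly lower by little. Of 23 measured genes 4 were called lower and 1 higher, beside 6.74% and 4.26% of all genes. The median was -0.26 in members and -0.21 in the other barcodes. Under TMM and DESeq2 factors 0 were called lower. The lower genes were *fn1a*, a fibronectin, *thbs1b*, a thrombospondin, *col5a2a*, a collagen V chain, and *itgav*, integrin αV, at log2 ratios of -0.71 to -0.67. *thbs1b* was at 555, 341 and 342 CPM. For *fn1a*, at 102, 67.8 and 57.7 CPM, 10 members held 42.0%, 54.3% and 49.5% of the UMIs. The tissue inhibitor of metalloproteinases *timp2b* was higher at 46.5, 86.02 and 76.4 CPM, though 10 members held 26.05%, 45.9% and 45.3% of its UMIs. Collagen I genes were not called, with log2 ratios of -0.43, -0.24 and -0.49 for *col1a2*, *col1a1b* and *col1a1a*.

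Immediate early and AP-1 genes respond quickly to signals and to cell stress, the handling of tissue included. Of 23 measured genes 4 were called lower, beside 6.74% of all genes, and 0 higher. The median log2 ratio was -0.25 in members and -0.19 in the other barcodes. Of the 23, 20 were below gControl in both libraries, while of all 2019 genes 1031 were below it in the pooled ratio. *junbb* was at 180, 106 and 41.0 CPM, so that the repeats differed from each other by more than 1 of them differed from gControl. *fosb* was at 144, 65.8 and 76.9 CPM, and *mych* at 171, 79.2 and 73.4 CPM. *klf9*, a target of the glucocorticoid receptor, was at 167, 51.7 and 53.8 CPM, a log2 ratio of -1.66 (-1.77 to -1.56). Its UMIs were in 79.6%, 49.2% and 46.3% of members and in 58.0%, 27.8% and 31.3% of globin-rich barcodes. After thinning the shares were 24.7%, 11.05% and 9.46% against 37.6%, 14.0% and 14.1%, higher in globin-rich barcodes in each library. Those barcodes were taken as a background for epidermal genes, and whether they serve as one for *klf9* was not tested. In all other barcodes its log2 ratio was -1.68. *fkbp5*, another such target, was at 289, 141 and 141 CPM and at a log2 ratio of -1.02 in the other barcodes. These were the 2 measured genes of a list of 5 such targets.

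Of 15 measured heat shock and stress genes 2 were called higher and 1 lower, beside 4.26% and 6.74% of all genes. The median was 0.22 in members and 0.01 in the other barcodes. The mitochondrial chaperonin genes *hspd1*, at 52.4, 93.3 and 92.2 CPM, and *hspe1*, at 83.5, 135 and 143 CPM, were the higher ones. *ddit3*, a factor of the endoplasmic reticulum stress response, was at 74.5, 40.3 and 42.5 CPM. The cytosolic *hsp90ab1* and *hspa8* had log2 ratios of 0.08.

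Of 19 measured immune and inflammatory genes 2 were called higher and 3 lower, beside 4.26% and 6.74% of all genes. *lgals2a*, a galectin gene, was at 195, 42.9 and 35.5 CPM, a log2 ratio of -2.32 (-2.43 to -2.21), with a UMI in 42.8%, 26.7% and 26.8% of members, and in 18.6%, 5.70% and 5.99% after thinning. In globin-rich barcodes its share was 1.77%, 1.55% and 1.297%, and in all other barcodes its level was 102, 129 and 124 CPM. In fin fold epidermis, which is part of the other barcodes, it was also lower, at 108, 19.8 and 74.8 CPM, with a UMI in 48.7%, 27.7% and 33.3% of barcodes. *ptgs2a*, a prostaglandin synthase, was at 89.3, 52.5 and 39.4 CPM, and *ptgdsb.2*, a neighbour in family of the rule gene *ptgdsb.1*, at 62.5, 130.2 and 103 CPM. *s100a11* was called higher at 1.73, 113 and 125 CPM, but 10 members held 98.6% and 98.9% of its UMIs in the gSema4ab libraries.

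The rule genes themselves differed in direction. *lgals1l1* was at 3366, 4657 and 4547 CPM and *ptgdsb.1*, of the lipocalin-type prostaglandin D synthase family, at 1483, 2890 and 2815 CPM. *zgc:136930* was at 7106, 5112 and 4880 CPM. *epcam*, an adhesion gene, was at 978, 1015 and 767 CPM, so that the repeats lay on either side of gControl. Since the members were chosen on these genes, their levels are given as a description.

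Ligands and receptors were mostly below gControl by less than 1.5-fold. Of 9 measured ligand genes 1 was called lower, beside 6.74% of all genes, namely *ntf3*, the neurotrophin-3 gene, at 77.6, 45.7 and 46.4 CPM. Of 18 receptor genes 0 were called, beside 4.26% of all genes called higher and 6.74% lower. Their median log2 ratio was -0.26 against -0.01 over all measured genes, and -0.24 in the other barcodes. Of the 18, 16 were below gControl in both libraries, while of all 2019 genes 1031 were below it in the pooled ratio. Under TMM and DESeq2 factors the median was -0.14 and -0.12, against 0.12 and 0.13 over all genes. *fgfr2*, a receptor of fibroblast growth factors, was at 857, 611 and 611 CPM, and *igf1ra*, an insulin-like growth factor receptor, at 127, 87.1 and 79.3 CPM. In the list of retinoid, lipid and barrier genes 7 were measured, with *fabp3*, a fatty acid-binding protein gene, called higher at 202, 306 and 304 CPM and *rarga*, a retinoic acid receptor, called lower at 108, 65.6 and 67.0 CPM. This is 1 of 7 each way, beside 4.26% and 6.74% of all genes. The list had 0 higher with Scrublet-marked, dividing or under-2000-UMI members left out, with thinning and with none of the fin fold genes, and 0 lower with thinning and under TMM and DESeq2 factors.

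Of 45 listed semaphorin, plexin and neuropilin genes 7 were measured and 1 was called lower, beside 6.74% of all genes. The median was -0.58 in members and -0.55 in the other barcodes. Under TMM and DESeq2 factors 0 were called. With members holding markers of another cell type left out, 3 of 8 were called lower, beside 6.77% of all genes. With at least 4 of the 6 rule genes it was 3 of 7, beside 7.09%. The gene called over all members was *sema3b*, a secreted semaphorin, at 96.6, 51.2 and 61.4 CPM. Of the B-type plexins, the receptors of class 4 semaphorins, *plxnb1b* was at 55.8, 52.5 and 54.0 CPM, *plxnb3* at 86.7, 54.4 and 59.3 CPM, and *plxnb1a* at 22.8, 16.3 and 14.4 CPM. The symbol *plxnb2a* belongs to 2 gene IDs, and ENSDARG00000094799 was at 90.1, 72.3 and 71.1 CPM. In this group *plxnb1b* differed from gControl by less than counting error, with an interval of -0.20 to 0.07.

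Of 77 measured genes of cytosolic ribosomal proteins 5 were called higher and 0 lower, a share near the 4.26% of all genes called higher, and the median was 0.10. The summed level of the list was 235389, 255832 and 262654 CPM in members and 236724, 262722 and 264105 CPM in all other barcodes. In this sum, unlike in the median share per barcode, members were not above the other barcodes. *rpl38* was at 719, 1598 and 1458 CPM, *rps29* at 1265, 2662 and 2618 CPM, and *rpl29* at 876, 1738 and 1736 CPM. Their log2 ratios of 1.09, 1.06 and 0.99 in members stood beside 1.09, 1.06 and 1.00 in all other barcodes. *NC_002333.17*, a symbol given by the files without a gene description, was called lower at 2832, 793 and 743 CPM and was at a log2 ratio of -1.69 in the other barcodes. It was not part of the mitochondrial share of UMIs, but 1 alternative scaling left it out together with the mitochondrial and ribosomal genes.

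Of the other genes furthest from gControl, 1 went against the other barcodes. *gstm.3*, a glutathione S-transferase gene, was at 141, 291 and 283 CPM in members, a log2 ratio of 1.03 (0.95 to 1.0996), and at 17.6, 11.8 and 15.8 CPM in all other barcodes, a log2 ratio of -0.35. It had a UMI in 45.6%, 62.1% and 60.4% of members and in 0.0737% to 0.211% of globin-rich barcodes. In fin fold epidermis its log2 ratio was 0.82 and in superficial epidermis 0.31. *ecrg4b*, which encodes a secreted peptide precursor, was at 752, 274 and 293 CPM, and *itga2.2*, an integrin α2 gene for collagen, at 222, 97.7 and 108 CPM. Both were also lower in all other barcodes, with log2 ratios of -2.27 and -1.53. *mtss1la*, at 211, 86.02 and 75.5 CPM, *cox7c*, a subunit of cytochrome c oxidase at 104, 193 and 229 CPM, and the tubulin *tuba8l4*, at 195, 385 and 375 CPM, went the same way there. *tcnbb*, at 493, 148 and 157 CPM, was another gene of few barcodes, with 47.8%, 87.5% and 79.6% of its UMIs in 10 members.

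Members with markers of another cell type were more frequent in gControl. A member was counted as mixed when at least 2 markers of another type each had 2 or more UMIs. For globin and muscle genes the limit of UMIs was set higher. There were 176 (21.9%, 19.1 to 24.9%), 90 (14.8%, 12.03 to 17.8%) and 114 (17.04%, 14.3 to 20.1%) mixed members. Of these, 78, 34 and 44 held *icn2* and *krt17* of the superficial layer, 23, 6 and 4 held *agr2* and *muc5.2* of mucous cells, and 43, 16 and 25 held globin genes. Scrublet, a program that scores doublets, marked 184, 112 and 140 members at a fixed rate, of which 105, 54 and 61 were also mixed. Members marked this way were kept in all values unless stated. The share of members among filtered barcodes given above includes the mixed ones, and 627, 520 and 555 members were not mixed.

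Superficial genes are given with and without the mixed members. Some of the mixed members are defined by *icn2* and *krt17*, so that for this pair the step itself lowers the level in each library. Without the mixed members the log2 ratio was -0.30 (-0.51 to -0.08) for *krt17* and 0.23 (0.06 to 0.40) for *icn2*. In globin-rich barcodes *krt17* had a UMI in 3.54%, 14.2% and 8.36%, and *icn2* in 7.37%, 15.6% and 16.1%. After thinning these shares were 1.39%, 6.62% and 3.34%, and 4.17%, 8.18% and 6.60%. This background was higher in both gSema4ab libraries, and its part in the 2 ratios was not tested. Of the 11 listed superficial genes, none of which was at 0, 8 were measured, 4 were called lower, beside 6.74% of all genes, and 0 higher, with a median log2 ratio of -0.65 and a summed level of 40446, 36518 and 37160 CPM. *krt17* was at 446, 128 and 162 CPM and *icn2* at 561, 221 and 193 CPM over all members, and at 30.4, 23.1 and 26.3 CPM and 42.1, 49.9 and 48.9 CPM without the mixed ones. Without these members only 4 genes of the list were still measured, and 0 were called. *agr1*, *cldne* and *si:ch211-195b11.3*, called lower over all members, then had log2 ratios of 0.96, 0.64 and 0.55.

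*muc5.2*, a gel-forming mucin, was at 367, 92.9 and 98.9 CPM, but only 4.61%, 3.28% and 2.54% of members had a UMI, and 10 members held 75.6%, 98.98% and 99.4% of its UMIs. Of 3 listed mucous genes 2 were measured and 1, *muc5.2*, was called lower, beside 6.74% of all genes. The summed level of the 3 was 599, 310 and 180 CPM in members, but 236, 384 and 355 CPM in all other barcodes. The neutrophil gene *lyz* was at 320, 27.5 and 330 CPM, and in gControl and gSema4abR2 10 members held 88.6% and 94.3% of its UMIs. The summed level of the other marker lists was 350, 41.1 and 385 CPM for neutrophils, 2588, 2628 and 2002 CPM for red blood cells, 42.3, 12.7 and 45.0 CPM for macrophages and 70.14, 156 and 130.5 CPM for muscle, and their part in the differences was not tested. Without the mixed members the log2 ratio was -0.83 for *itga6b*, -0.46 for *krt5*, -0.52 for *col7a1*, 1.57 for *pcna* and 0.81 for *stmn1a*, and in the mixed members alone it was -0.22, -0.59, -0.66, 1.37 and 0.91.

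**Figure D5:**
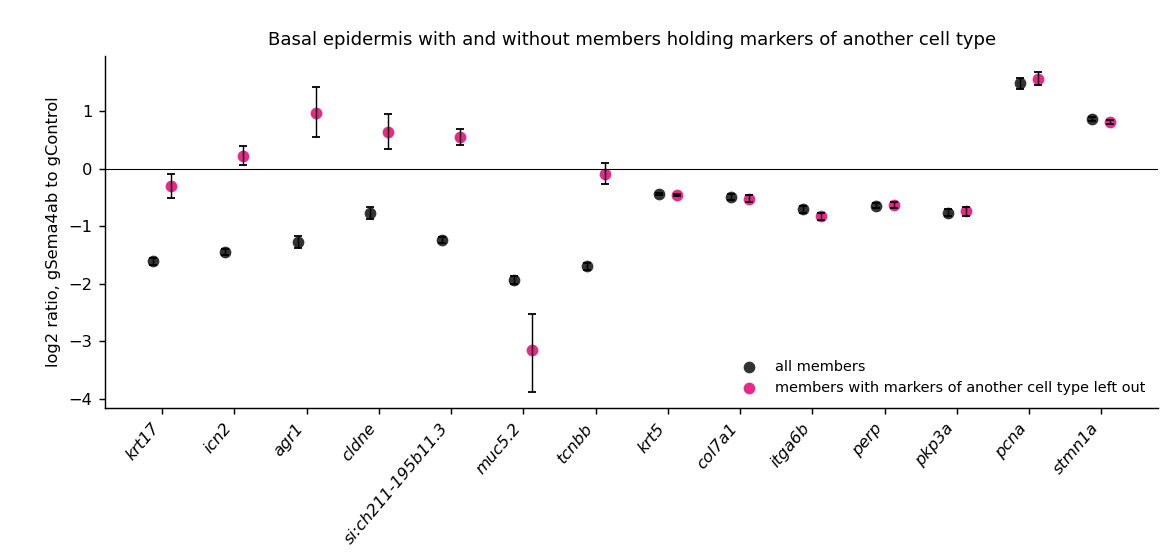
Log2 ratio of gSema4ab to gControl in basal epidermis for 14 genes over all members (black) and without the members that hold markers of another cell type (pink), with exact 95% intervals of counting error. The superficial genes *krt17*, *icn2*, *agr1*, *cldne* and *si:ch211-195b11.3* shift towards or above 0, and *krt17* and *icn2* are among the markers that define the members left out. For *itga6b* the value is -0.70 over all members and -0.83 without the mixed ones.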

How the data were processed

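The matrices were produced by the authors in Cell Ranger 7.1.0 on GRCz11, per the labels. The authors deposited unnormalized counts of UMIs for each gene in each called cell. The mutated site was not analysed here, since no reads were used. Member genes and gene lists were chosen with earlier results of these data known, and lists of clock, glucocorticoid, mucous and ribosomal genes after values had been seen. Another list is not reported here.

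Counts were summed over the members of each library and scaled to CPM by their total UMIs, and 0.5 UMIs were added before a log2 ratio, in which both gSema4ab libraries were pooled. Intervals of 95% were exact Poisson for levels, exact binomial for shares and exact conditional binomial for ratios. Genes needed a mean of 50 CPM and 20 UMIs in all. UMIs are molecules captured, and depth was 598 to 49175, 582 to 49712 and 510 to 47797 UMIs per member. No p-value was computed, since each condition is 1 pool. Doublets were kept, and removing them was an alternative (Scrublet in scanpy 1.11.5, highest scores at 0.8% of a library per 1000 barcodes), as were the study's limit of 20 UMIs per detected gene, other limits of the rule and scaling with edgeR 4.0.16 and DESeq2 1.42.0 factors in R 4.3.3.

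Named genes were the 12 highest and the 12 lowest called ratios at 100 CPM or more, in each list up to 4 genes by level and 4 by ratio, the rule genes, 15 genes highest against other barcodes, and *sema4ab* with B-type plexins. Any other gene was named after its value had been seen. Python 3.11.15, numpy 2.4.6, scipy 1.17.1, pandas 2.3.3 and matplotlib 3.10.9 were used, and the sums and ratios were tested on simulated data.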

Additional observations from a re-analysis of the deposited data

Results flagged for a closer look

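*si:ch211-153b23.5* differed in direction between basal and fin fold epidermis, and the difference itself was not tested. Its log2 ratio of gSema4ab to gControl was 2.20 in basal epidermis (31.5, 98.6 and 187.4 CPM) and -1.12 in fin fold epidermis, where the UMIs were 780 in gControl, 139 in gSema4abR1 and 159 in gSema4abR2. In basal epidermis 10 members held 80.6%, 70.5% and 81.6% of its UMIs, so that few barcodes set the value.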

How the results depend on the processing

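The alternatives changed 1 choice at a time, and those of dividing members, of the fin fold as members, of globin-rich barcodes, of genes in 10% of members and of 1 UMI were added after the data had been seen. The 86 genes higher and 136 lower became 145 and 79 with TMM, 155 and 74 with DESeq2 factors, 346 and 586 at a limit of 10 CPM, 20 and 21 at 200 CPM, and 18 and 26 at a fold of 2. With dividing members left out 53 genes were higher. Leaving out 1 repeat gave 94 to 112 higher and 184 to 202 lower, log2 ratios of -0.38 to -0.22 for the share of members and 1.02 to 1.55 for the dividing share, and 64 named genes past 1.5-fold. A call then needs 1 gSema4ab library and not both, so more calls follow from the setting and do not check the calls. The 64 were counted only among genes called with both repeats. The log2 ratio of the share of members was -0.12 with none of the fin fold genes and -0.44 with fin fold barcodes as members. Without members holding markers of another cell type the ratio turned to 0.96 for *agr1*, 0.64 for *cldne*, 0.23 for *icn2* and 0.55 for *si:ch211-195b11.3*, and without Scrublet-marked members to -1.88 for *col2a1a*, of whose UMIs 10 members held 93.6%, 90.4% and 95.8%. The cause of these shifts was not tested. Of 1980 pairs of a named gene and an alternative, these 5 reversed, 1155 stayed inside the counting interval and 820 left it. A reversal was counted only for genes called over all members, so changes of sign in uncalled genes are not among the 5. For the 1 measured neutrophil gene the log2 ratio was -0.79 over all members and 2.16 with at least 4 of the 6 rule genes. No paired analysis was possible because gControl is 1 library and each condition 1 pool. Depth limits shares of genes near 1 UMI, such as *sema4ab*.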

Other observations

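The genes below were chosen after their values had been seen, and no explanation was weighed. Clock genes differed in both directions. Of 7 measured genes 2 were called higher and 1 lower, beside 4.26% and 6.74% of all genes. *tefa* was at 95.1, 203 and 197 CPM, *per2* at 99.5, 155 and 152 CPM, and *nr1d2a* at 220, 91.5 and 92.9 CPM. Their log2 ratios were 0.61, 0.47 and -0.90 in all other barcodes. *cry5*, a light-responsive photolyase gene of the cryptochrome family, was at 5.62, 23.1 and 24.8 CPM. The labels give no hour of collection.

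*irg1l*, an immune-responsive gene of zebrafish epidermis, had a UMI in 0.996%, 13.1% and 13.9% of members, and in 0.368%, 7.82% and 5.84% of globin-rich barcodes. After thinning the shares of members were 0.523%, 3.80% and 3.47%, beside 0.0772%, 3.27% and 2.23% of globin-rich barcodes, so that in the gSema4ab libraries members were close to the background. In superficial epidermis the share was 2.21%, 48.5% and 51.7%. *klf2a* had a UMI in 29.1%, 5.41% and 4.33% of members and in 0.147%, 0.141% and 0.0720% of globin-rich barcodes.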
